A study of Bos taurus with 9 samples.

Results

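The genes SP100, SP110 and SP140 of the SP100 family were followed together with PML, DAXX and ATRX in bovine endometrial cells exposed to the hormones of early pregnancy and to interferon tau (IFNT). The 6 genes were chosen by name as 3 genes of the SP100 family and the core proteins of PML nuclear bodies. Earlier results of these data were known, although the rule itself uses no measured value. All 6 were among the 17162 genes of the expression table, and all 6 were among the 12578 genes tested. RNA was sequenced from 9 libraries of wild-type primary cells labelled as bovine endometrial epithelial cells (BEND), isolated from abattoir uteri of Holstein cows and grown in medium with serum. The control group (CON, n = 3) received neither hormones nor IFNT, the GA group (n = 3) received estradiol (E2, 1 nM) and progesterone (P4, 100 nM), and the GB group (n = 3) received the same hormones and then IFNT at 100 ng/mL for 12 h. The GB group had a further treatment step after the hormones, and the sampling times of CON and GA were not given separately, so a difference in time in culture cannot be told apart from the treatment. Expression is given as FPKM, the number of sequenced fragments scaled by exon length and by the mapped reads of the library, so that levels can be set side by side between genes.

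IFNT, a type I interferon, is secreted by the ruminant conceptus as its pregnancy signal and acts on the endometrium through the interferon receptor and the STAT factors. PML nuclear bodies are small spherical structures of the nucleus that PML builds as a scaffold through its SUMO modification, and they hold SP100 and DAXX among their constant residents. SP100, SP110 and SP140 are chromatin readers with a SAND domain, DAXX is a chaperone of histone H3.3, and ATRX is the chromatin remodeller that works with DAXX at heterochromatin and telomeres. PML and the SP100 family are known in other cells as interferon-stimulated genes and as part of the intrinsic defence of the nucleus against DNA viruses.

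The labelled cell type was checked against marker genes. Of the epithelial markers, 5 of 6 were in the table, and all 5 had a mean below 0.5 FPKM. Their summed level lay between 0.43 and 1.38 FPKM in the 9 libraries, and the most abundant, KRT18, averaged 0.361 FPKM. CDH1 was listed at 0 in 1 CON library and KRT7 at 0 in 2 CON, 2 GA and 2 GB libraries, and EPCAM was not analysed here. All 8 stromal fibroblast markers were expressed, with VIM at a mean of 8539 FPKM, COL1A1 at 2389 FPKM and COL1A2 at 2615 FPKM over the 9 libraries. Their summed level was between 16640 and 17220 FPKM in the CON and GA libraries and between 15040 and 15150 in GB. None of the 8 was called, and by limma 4 had an adjusted p under 0.05 against CON and 5 against GA, where 33.5% and 29.0% of all tested genes did, with a median log2FC of -0.16 in each. In GA vs. CON it was 3 of the 8 (DCN at a log2FC of 0.39, LUM at 0.24 and PDGFRB at -0.34), where 0.453% of all tested genes had a limma adjusted p under 0.05. With the GC content of the reads as a covariate, 0 of all tested genes did in that comparison. The part of these stromal differences in the results below was not tested. At the RNA level these markers did not bear out the epithelial label. The study identified the cells by cytokeratin staining, which was not analysed here, and they are called BEND after their label. Endothelial markers summed to 2.2, 1.6 and 2.06 FPKM in CON, 1.33, 1.45 and 1.68 in GA and 3.34, 2.15 and 2.91 in GB. CDH5, the most abundant, was 1.43 ± 0.364 FPKM in CON, 1.01 ± 0.171 in GA and 1.94 ± 0.512 in GB (limma log2FC 0.68, adjusted p = 0.0395, against GA, and 0.34, adjusted p = 0.253, against CON, not called), and its part in the results was not tested. KDR was 0.0567 ± 0.0404 FPKM in CON, 0.0367 ± 0.0635 in GA and 0.423 ± 0.175 in GB, where every library was above all others, and was too low to be tested. The 5 lymphocyte markers in the table summed to at most 2.58 FPKM, with CD3G at 0.877 FPKM. The lymphocyte markers CD3D and CD79B were listed at 0 in all CON and GA libraries. Myeloid markers summed to between 25.2 and 28.5 FPKM in CON and GA and to between 30.2 and 35.9 FPKM in GB. The most abundant of the 5, CD14, was 20.2 ± 0.916 FPKM in CON, 21.4 ± 1.17 in GA and 19.05 ± 3.67 in GB. CD68 was 3.56 ± 0.412, 4.12 ± 0.0777 and 3.81 ± 0.625 FPKM, and neither of them was called. CSF1R was 0.543 ± 0.0603, 0.410 ± 0.151 and 0.347 ± 0.176 FPKM and was not tested. ITGAM was listed at 0 in all CON and all GB libraries, and CD163 alone was called, at 2.32 ± 0.342 FPKM in CON, 1.89 ± 0.0557 in GA and 9.23 ± 0.172 in GB (SD, n = 3 each). CD163, a scavenger receptor of macrophages, was thus the one myeloid marker that moved in the direction of the genes described below past the test, and its part in their change was not tested. In cell cultures measured in bulk, fewer cells of a type and less RNA per cell cannot be told apart.

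Without IFNT, the 6 genes spanned a wide range of levels. In CON, DAXX stood at 53.1 ± 2.50 FPKM (SD, n = 3), PML at 18.1 ± 0.827, ATRX at 9.99 ± 0.754, SP140 at 8.01 ± 0.814, SP110 at 3.79 ± 0.388 and SP100 at 1.53 ± 0.291. The order was the same in GA, and in neither group did the libraries of neighbouring genes overlap. The chaperone DAXX was thus the most abundant transcript of the 6 in cells without IFNT, and SP100, the founding member of its family, the least. In GB the order was PML at 178.5 ± 2.55 FPKM, DAXX at 145.5 ± 2.91, SP140 at 134.9 ± 2.67, SP110 at 37.8 ± 0.857, SP100 at 30.8 ± 2.32 and ATRX at 11.02 ± 0.463, again without overlap between neighbours. Counted from the most abundant gene of the table, PML moved from place 6797 in CON to place 1292 in GB, SP140 from 8964 to 1655 and SP100 from 11414 to 5185, whereas ATRX was at place 8470 in CON and 8270 in GB.

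**Figure D1:**
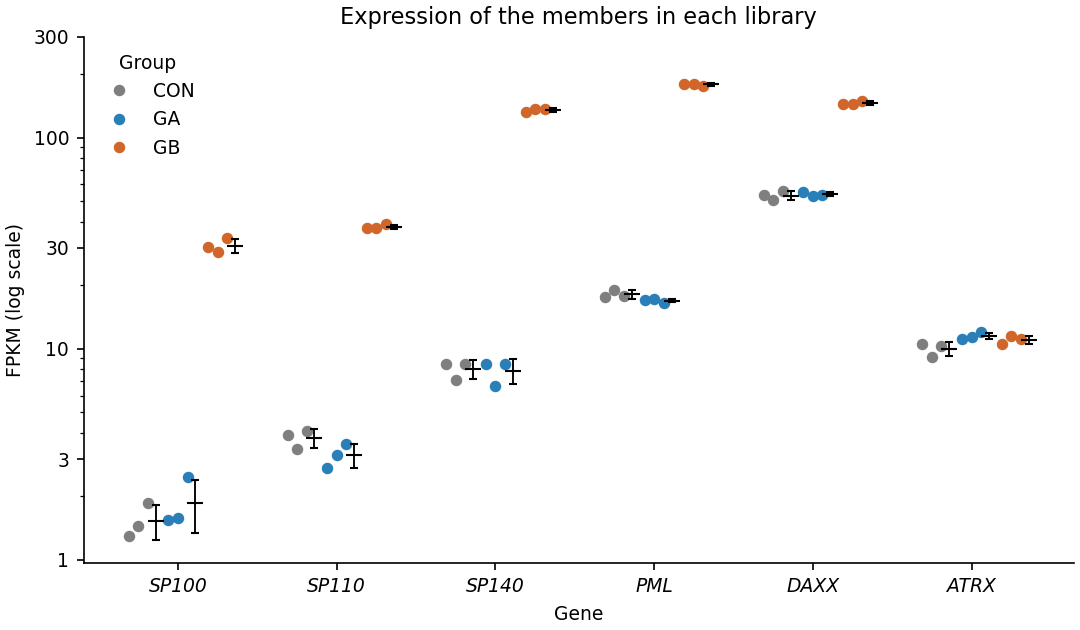
FPKM of the 6 genes (log axis) in each library, with 1 point per library and black bars for mean ± SD of the 3 libraries of a group. The GB libraries lie above all CON and GA libraries for SP100, SP110, SP140, PML and DAXX, and among them for ATRX.

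In GB vs. CON, 5 of the 6 genes rose and ATRX did not pass the test. A gene was called when the log2 fold change (log2FC) on the log2(FPKM + 0.5) scale exceeded 1 in size with a Benjamini-Hochberg adjusted p under 0.05 in limma, a rule that called 2.94% of all tested genes higher and 1.07% lower. Adjusted p alone was under 0.05 for the same 5 genes and for 33.5% of all tested genes. The median log2FC was 3.22 over the 6 genes and -0.02 over all tested genes. In GB vs. GA the same 5 genes rose, where 2.66% of all tested genes were called higher and 0.978% lower, and 29.0% had an adjusted p under 0.05. The median log2FC was 3.38 over the 6 genes and -0.08 over all tested genes. The GB libraries serve in both comparisons, whose values are given side by side and are not independent of each other. The GB libraries lay entirely above the other group for 5 of the 6 genes in each comparison, which held for 22.2% of all tested genes against CON and 15.7% against GA. The labels do not say whether the replicates came from separate animals, so the p-values measure the spread between these libraries, which may be technical. The pseudocount of 0.5 understates the change of genes with low FPKM, SP100 most of the 6.

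SP140, a reader of histone marks best known from leukocytes, had with SP100 the highest log2FC of the 6. Its level was 8.49, 7.07 and 8.47 FPKM in the CON libraries, 8.45, 6.64 and 8.47 in GA and 131.81, 136.5 and 136.35 in GB. The lowest GB library was far above the highest of the other 6, and CON and GA overlapped. Against CON the log2FC was 3.996 (SE 0.10, limma adjusted p = 2.93e-09) and against GA it was 4.03 (SE 0.10, adjusted p = 2.82e-09), and mean FPKM was 16.8-fold and 17.2-fold higher.

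SP100, a resident of PML nuclear bodies that is modified by SUMO and binds heterochromatin protein, was measured at 1.3, 1.44 and 1.86 FPKM in CON, 1.55, 1.57 and 2.46 in GA and 30.22, 28.78 and 33.32 in GB. It was the least abundant of the 6 genes in every library without IFNT, and the spread relative to the mean was widest for it, with a coefficient of variation of 19.0% in CON, 27.9% in GA and, lower than both, 7.54% in GB. The log2FC was 3.95 (SE 0.16, adjusted p = 1.16e-07 by limma) against CON and 3.75 (SE 0.16, adjusted p = 1.70e-07) against GA. In linear FPKM the rise was the largest of the 6 in GB vs. CON, at 20.1-fold, and 16.5-fold against GA.

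SP110, known from control of intracellular bacteria in macrophages, stood at 3.92, 3.35 and 4.09 FPKM in CON, 2.71, 3.15 and 3.53 in GA and 37.42, 37.15 and 38.75 in GB. All GB libraries were near 38 FPKM, and the CON and GA libraries overlapped. Its log2FC came to 3.16 (SE 0.10, limma adjusted p = 1.85e-08) against CON and to 3.40 (SE 0.10, adjusted p = 1.12e-08) against GA. The 3 family members and SP140L, a relative described below, are related in sequence. Reads that fit more than one of them were divided by RSEM, so a part of the level of each is less certain than its spread between libraries.

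The shares among SP100, SP110 and SP140 differed between the groups. SP100, SP110 and SP140 summed to 13.3 ± 1.32 FPKM in CON, 12.8 ± 1.55 in GA and 203 ± 4.57 in GB (SD, n = 3). SP140L was not part of this sum, at 16.2 ± 9.51 FPKM in CON, 20.5 ± 4.93 in GA and 207.2 ± 8.27 in GB. The shares below therefore hold for these 3 genes only. SP110 made up 28.4 ± 0.176% of this sum in CON and 24.5 ± 3.20% in GA, but 18.6 ± 0.206% in GB, and the GB libraries were below those of both other groups. SP140 made up 60.1 ± 1.65% in CON, 61.2 ± 4.60% in GA and 66.3 ± 1.02% in GB, where 1 GA library reached the GB range. SP100 made up 11.5 ± 1.79% in CON, 14.3 ± 2.45% in GA and 15.1 ± 0.885% in GB. Its GB libraries overlapped with those of GA. The ratio of SP140 to SP110 was 2.12 ± 0.0477 in CON, 2.54 ± 0.520 in GA and 3.57 ± 0.0888 in GB. The exact permutation p was 0.1 for this ratio and for the share of SP110 in both GB comparisons, two-sided, which is the smallest value that 3 against 3 libraries allow, and against CON and GA it was 0.1 and 0.3 for the share of SP140 and 0.1 and 0.6 for that of SP100. In GA vs. CON the share of SP110 was lower in every GA library and reached the same exact permutation p of 0.1, while that of the ratio was 0.3.

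PML, the scaffold of the nuclear bodies, had the most even values of the 6 genes in GB. Its level was 17.51, 19.04 and 17.73 FPKM in CON, 16.92, 17.24 and 16.54 in GA and 179.89, 180.03 and 175.55 in GB. The coefficient of variation was 4.57% for CON, 2.07% for GA and 1.43% for GB. No GB library came near the others. The log2FC was 3.27 (SE 0.05, adjusted p = 1.42e-10 by limma) against CON and 3.36 (SE 0.05, adjusted p = 1.12e-10) against GA, with mean FPKM 9.87-fold and 10.6-fold higher. The 95% interval of the log2FC ran from 3.16 to 3.38 against CON and from 3.25 to 3.47 against GA.

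DAXX, which deposits histone H3.3 and is held in the bodies by PML, rose by less than the other called genes. The CON libraries had 53.35, 50.53 and 55.52 FPKM, the GA libraries 55.05, 52.85 and 53.49 and the GB libraries 143.72, 143.89 and 148.84. The lowest GB library was far above the highest library without IFNT, and CON and GA overlapped. For DAXX the log2FC was 1.45 (SE 0.05, limma adjusted p = 1.71e-08) against CON and 1.43 (SE 0.05, adjusted p = 1.92e-08) against GA, a 2.74-fold and a 2.70-fold higher mean. The upper end of its 95% interval in GB vs. CON, 1.55, lay below the lower end of that of SP110, 2.93, the smallest rise among the remaining called genes.

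ATRX, the partner of DAXX, was measured at 10.55, 9.13 and 10.28 FPKM in CON, 11.13, 11.4 and 11.95 in GA and 10.52, 11.43 and 11.12 in GB. The GB libraries overlapped with both other groups. The log2FC was 0.14 (SE 0.08, adjusted p = 0.191 by limma) in GB vs. CON, with a 95% interval from -0.03 to 0.31, and -0.06 (SE 0.08, adjusted p = 0.605) in GB vs. GA, with an interval from -0.23 to 0.11. Both intervals leave out a rise of the size seen for DAXX. The sign of the ATRX estimate in GB vs. CON turned to -0.10 with the GC content of the reads as a covariate, and in GB vs. GA to 0.01 with median-of-ratios scaling, neither with a call.

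**Figure D2:**
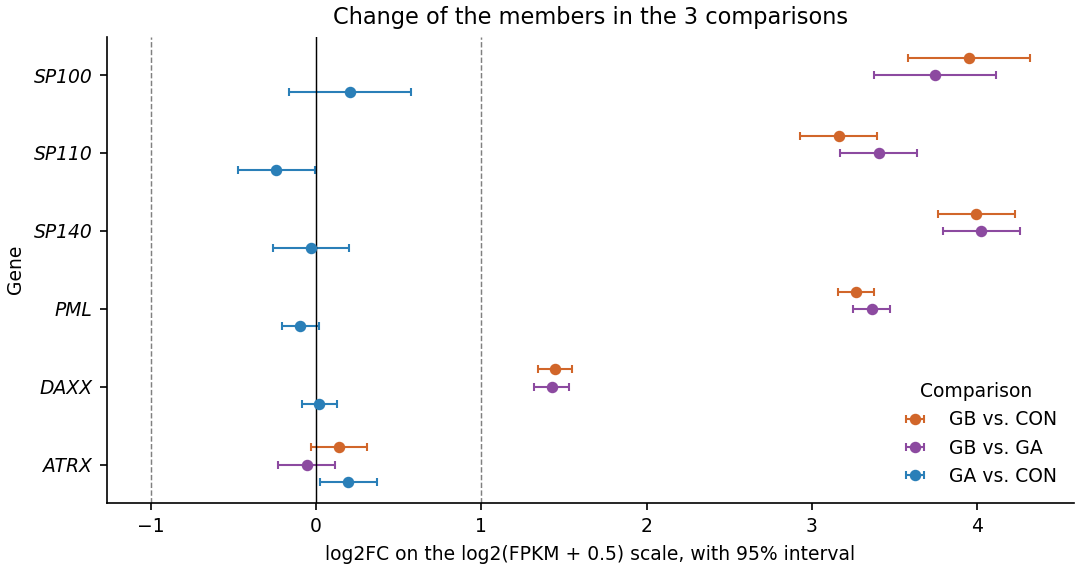
log2FC of the 6 genes with its 95% interval in GB vs. CON, GB vs. GA and GA vs. CON, with dashed lines at a log2FC of 1 in either direction. SP100, SP110, SP140 and PML lie between 3.16 and 4.03 in the comparisons with GB, DAXX at 1.45 and 1.43, and ATRX near the zero line.

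Partner genes therefore stood in different proportions in the groups. The ratio of DAXX to ATRX was 5.33 ± 0.246 in CON, 4.69 ± 0.239 in GA and 13.2 ± 0.557 in GB (SD, n = 3). The ratio of PML to DAXX was 0.342 ± 0.0309 in CON, 0.314 ± 0.0104 in GA and 1.23 ± 0.0416 in GB, so that PML passed DAXX in all 3 GB libraries and in no other. The ratio of PML to SP100, the scaffold to a resident protein, was 12.1 ± 2.21 in CON, 9.54 ± 2.44 in GA and 5.83 ± 0.506 in GB. Each of these ratios reached the smallest exact permutation p of 0.1 in both GB comparisons, and the ratio of DAXX to ATRX, which was lower in every GA library than in any CON library, reached it in GA vs. CON as well.

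Summed over the 6 genes, FPKM was 94.5 ± 3.73 in CON, 95.03 ± 1.92 in GA and 538 ± 5.21 in GB. DAXX made up 56.2 ± 0.451% of the sum in CON and 56.6 ± 1.03% in GA but 27.0 ± 0.312% in GB, although its own level was higher there. PML went from 19.2 ± 1.61% in CON to 33.2 ± 0.772% in GB, SP140 from 8.46 ± 0.582% to 25.1 ± 0.340%, and ATRX from 10.6 ± 0.508% to 2.05 ± 0.0769%.

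**Figure D3:**
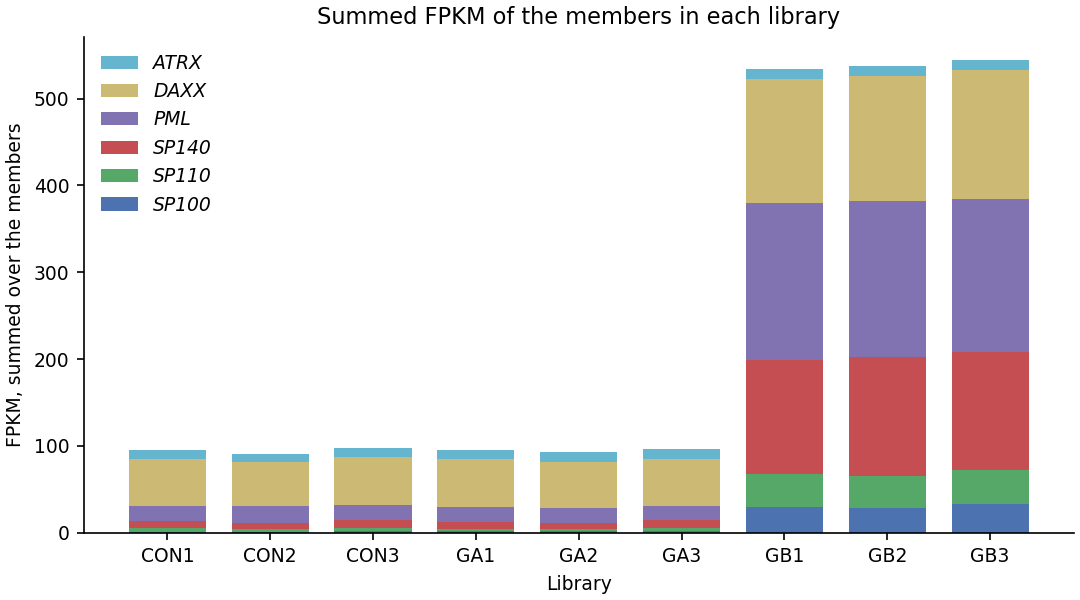
FPKM summed over the 6 genes in each of the 9 libraries (stacked bars, 1 colour per gene). The GB bars reach 538 FPKM on average against 94.5 in CON and 95.03 in GA, and most of the height gained belongs to PML, SP140 and DAXX.

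With the hormones alone, none of the 6 genes was called. In GA vs. CON, 0.0716% of all tested genes were called, 0.453% had an adjusted p under 0.05 in limma, and 0 of the 6 genes reached either. The median log2FC was -0.01 over the 6 genes and 0.06 over all tested genes. The unadjusted p of the limma model was under 0.05 for SP110 (log2FC -0.24, adjusted p = 0.245) and ATRX (log2FC 0.20, adjusted p = 0.211), and for 2430 of all tested genes. The libraries of GA and CON did not overlap for PML and ATRX, 2 of the 6 genes, and for 24.7% of all tested genes. For PML the log2FC was -0.09 (limma adjusted p = 0.316), for SP100 0.20 (adjusted p = 0.523), for SP140 -0.03 (adjusted p = 0.895) and for DAXX 0.02 (adjusted p = 0.857). The 95% intervals of all 6 lay between -0.48 and 0.57, so that a change as large as any of those called in GB was outside them. SP110 stood below this range, at -0.56 (SE 0.15), with the GC content of the reads as a covariate. With the replicate number in the model as well it was -0.50 (SE 0.22), and neither value was called.

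Genes that work with the 6 proteins were described from lists of 51 genes in all, of which 48 were in the table and tested. In GB vs. CON 3 of the 48 rose and 1 fell, where 2.94% of all tested genes were called higher and 1.07% lower. In GB vs. GA 3 rose and 3 fell, where the shares were 2.66% and 0.978%, and in GA vs. CON 0 of the 48 were called by limma, where the share was 0.0716%. The median log2FC over the 48 was 0.08, -0.02 and 0.13 in these comparisons, beside -0.02, -0.08 and 0.06 over all tested genes.

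Among the SAND domain relatives of the family, 4 of 5 were tested and 1 rose in both GB comparisons, with AIRE not analysed here. Of all tested genes, 2.94% were called higher against CON and 2.66% against GA. The relative that rose was SP140L, the nearest to SP140. It was measured at 19.95, 5.43 and 23.33 FPKM in CON, 15.22, 21.35 and 24.98 in GA and 203.77, 201.14 and 216.59 in GB, so that CON replicate 2 was far below the other CON libraries and all GB libraries were above 200 FPKM. Its log2FC was 3.87 (SE 0.44, limma adjusted p = 0.000186) against CON and 3.33 (SE 0.44, adjusted p = 0.000556) against GA. Without CON replicate 2 it was 3.23 in GB vs. CON, and with the GC content of the reads as a covariate it was 1.89 (limma adjusted p = 0.0268). With that covariate and the replicate number both in the model the call was lost (log2FC 1.72, adjusted p = 0.185), whereas the replicate number alone left it at 3.87. The GC content was 52.78 to 53.6% in the CON libraries and 51.74 to 52.22% in those of GA and GB. In comparisons with CON the covariate therefore cannot be well separated from the group. The transcription factors DEAF1, at 15.8 ± 1.204 FPKM in CON and 15.7 ± 1.38 in GB, and GMEB2, at 14.7 ± 1.71 and 14.9 ± 0.807, had a log2FC of -0.02 and 0.03.

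Of the 16 PML nuclear body partners, 2 were called higher in GB vs. CON and none was called lower, where 2.94% and 1.07% of all tested genes were, and 8 had an adjusted p under 0.05 in limma, beside 33.5% of all tested genes. In GB vs. GA 2 were called higher and 2 lower, where 2.66% and 0.978% of all tested genes were, and 6 had an adjusted p under 0.05, beside 29.0% of all tested genes. ISG20, an RNA exonuclease, was measured at 17.86, 16 and 17.56 FPKM in CON, 17.48, 14.63 and 14.45 in GA and 82.52, 91.09 and 76.97 in GB, with a log2FC of 2.25 (SE 0.09, limma adjusted p = 9.43e-08) against CON and 2.39 (adjusted p = 5.97e-08) against GA. MORC3, an ATPase that gathers at the bodies, was measured at 7.27, 6.02 and 7.02 FPKM in CON, 8.75, 7.07 and 8.73 in GA and 22.13, 20.59 and 23.5 in GB, with a log2FC of 1.64 (SE 0.11, limma adjusted p = 3.41e-06) and 1.38 (adjusted p = 1.25e-05). Both were above all CON and GA libraries in every GB library. Of all tested genes, 22.2% lay entirely higher in GB against CON and 15.7% against GA.

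The 2 partners that fell in GB vs. GA were TP53INP1, a stress protein induced by p53, and HIPK3, a kinase of the nucleus. TP53INP1 was 59.91, 50.22 and 60.64 FPKM in CON, 70.13, 76.55 and 81.37 in GA and 32.97, 32.1 and 25.73 in GB. The order GA, CON, GB held without overlap, and the log2FC was -1.32 (limma adjusted p = 2.22e-05) in GB vs. GA and -0.90 (adjusted p = 0.000257, not called) in GB vs. CON. HIPK3 was 17.4 ± 0.427 FPKM in CON, 19.8 ± 1.51 in GA and 9.47 ± 0.287 in GB, with a log2FC of -1.02 (limma adjusted p = 4.82e-06) in GB vs. GA and -0.85 (adjusted p = 1.79e-05, not called) in GB vs. CON. Its call in GB vs. GA was lost under 5 of 21 alternatives, at values between -0.998 and -0.95.

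The SUMO pathway, which modifies PML and SP100, had 16 genes, of which none was called higher and 1 was called lower in both GB comparisons. Against CON and GA, 2.94% and 2.66% of all tested genes were called higher and 1.07% and 0.978% lower. By limma 7 of the 16 had an adjusted p under 0.05 against CON and 3 against GA, where 33.5% and 29.0% of all tested genes did. The gene called lower was PIAS2, a SUMO ligase, at 34.69, 33.15 and 34.53 FPKM in CON, 36.52, 36.11 and 38.02 in GA and 13.08, 13.68 and 14.92 in GB. Its log2FC was -1.27 (SE 0.06, limma adjusted p = 3.16e-07) against CON and -1.38 (SE 0.06, adjusted p = 1.67e-07) against GA. The modifier SUMO2 was the most abundant of the list, at 1352 ± 28.8 FPKM in CON, 1521 ± 44.6 in GA and 1448 ± 136.4 in GB. The median log2FC of the list was 0.17 against CON and 0.05 against GA, beside -0.02 and -0.08 over all tested genes. In GA vs. CON it was 0.14, beside 0.06 over all tested genes.

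The genes of histone H3.3, the cargo of DAXX, and of its other chaperone HIRA had 6 of 7 members tested and none called, with HIRA itself not analysed here. Of all tested genes, 2.94% were called higher and 1.07% lower against CON, and 2.66% and 0.978% against GA. At such shares, the lack of a call among 6 genes does not set the list apart. H3F3B was 766.6 ± 86.0 FPKM in CON, 943.3 ± 45.5 in GA and 925.8 ± 36.7 in GB (log2FC 0.28 in GB vs. CON, limma adjusted p = 0.0233), and H3F3A was 562.1 ± 51.3, 648.1 ± 24.3 and 595.0 ± 29.3. UBN1, a subunit of the HIRA complex, was 29.7 ± 0.848 FPKM in CON and 28.9 ± 1.04 in GB. The heterochromatin partners of ATRX and DAXX also had 6 of 7 tested and none called, beside the same shares, with CBX1 not analysed here. By limma 2 of these 6 had an adjusted p under 0.05 against CON and 1 against GA. In the histone list it was 1 and 0, where 33.5% and 29.0% of all tested genes did. CBX3 was 234.0 ± 48.3 FPKM in CON, 305.8 ± 16.4 in GA and 310.0 ± 27.6 in GB. Its log2FC was 0.42 (limma adjusted p = 0.0413) in GB vs. CON but 0.02 (adjusted p = 0.941) in GB vs. GA. In GA vs. CON it was 0.41 (limma adjusted p = 0.172), so CBX3 stood at the GB level without IFNT. CBX5 was 101.7 ± 17.7 in CON, 116.3 ± 9.39 in GA and 120.4 ± 8.64 in GB. The corepressor TRIM28 was 230.0 ± 2.40, 236.6 ± 3.16 and 219.2 ± 1.58. CON replicate 2 lay below the other CON libraries for CBX3, at 178.48 FPKM beside 266.47 and 257. The same held for CBX5 (81.36 beside 109.61 and 114.03) and H3F3B (668.95 beside 799.63 and 831.28). How far their log2FC depends on that library was not tested. The median log2FC in GB vs. CON was -0.04 for the histone list and 0.17 for the heterochromatin list. In GA vs. CON it was 0.11 for each list, beside 0.06 over all tested genes. The median of 0.17 lies between CBX5 (0.26) and EZH2 (0.08), and so depends in part on the low CBX5 value of CON replicate 2.

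**Figure D4:**
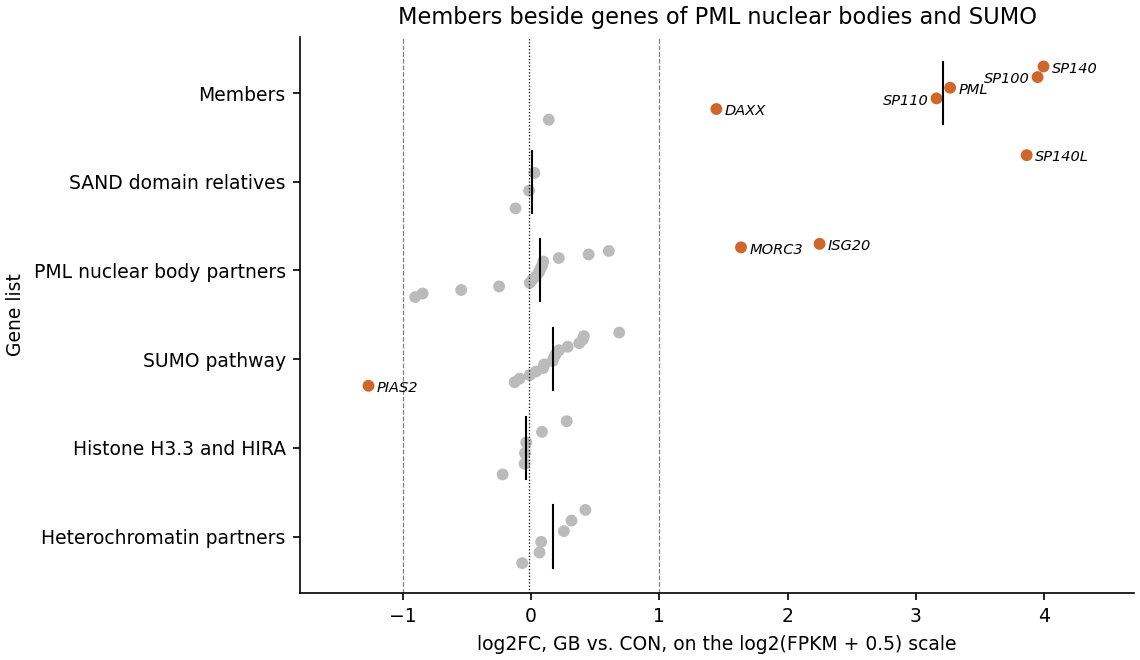
log2FC in GB vs. CON of the 6 genes and of the 48 tested genes of the 5 lists, 1 point per gene, orange where called, with a black bar at each median, a dotted line at the median of all tested genes and dashed lines at a log2FC of 1 in either direction. Outside the 6 genes the called genes are SP140L, ISG20 and MORC3, which rose, and PIAS2, which fell.

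The profile of each gene over the 9 libraries, as log2(FPKM + 0.5) relative to its own CON mean, was compared with that of every other tested gene by the root mean square (RMS) difference, as a description. Nearest to SP100 were HERC5 (RMS 0.175), C7H19orf66 (0.188) and IFI35 (0.194), and nearest to SP140 were BOLA-NC1 and IFI35 (both 0.155) and C7H19orf66 (0.165). SP110 was nearest to PML itself (0.165), followed by LOC786372 (0.174) and IFITM1 (0.179). PML was nearest to IFITM1 (0.0630), LOC786372 (0.0916) and C4A (0.108). LOC786372 averaged 0.0167 FPKM in CON and 4.65 in GB, and C4A 0.537 and 8.63, so that both owe their profile in part to the pseudocount. DAXX was nearest to TAPBP (0.0425), CDADC1 (0.0653) and CNP (0.0673), and ATRX to POLR2B (0.0287), XPOT (0.0318) and P4HA1 (0.0345). Within an RMS of 0.5 lay 35 genes around SP100, 37 around SP140, 54 around SP110 and 55 around PML, but 414 around DAXX and 10985 around ATRX. Among the 6 genes, SP110 and PML (0.165) and SP100 and SP140 (0.218) were closest, and DAXX and ATRX were 0.764 apart.

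The genes beside the 6 on the chromosome were listed after these values had been seen, from the gene order of the RefSeq annotation of ARS-UCD2.0, with 3 protein-coding genes of the table on each side. The symbol of 5 of the 6 genes matched, and SP140 was not placed. Of 24 flanking genes, 20 were tested, and in both GB comparisons 2 of them were called higher and none was called lower, where 2.94% and 2.66% of all tested genes were called higher and 1.07% and 0.978% lower. SP110, SP100 and SP140L followed each other in that order among the genes matched by symbol, and all of them rose, while the next gene on the outer side of SP140L, CAB39, had a log2FC of 0.16 in GB vs. CON. Near DAXX, the gene that rose was TAPBP, which encodes tapasin of the antigen loading complex. It was 82.85, 79.92 and 89.71 FPKM in CON, 82.16, 83.74 and 88.57 in GA and 229.98, 224.16 and 226.97 in GB, with a log2FC of 1.43 (SE 0.05, limma adjusted p = 4.21e-08) in GB vs. CON, beside 1.45 for DAXX. ZBTB22, which lies between TAPBP and DAXX, was 4.44 ± 0.212 FPKM in CON and 2.59 ± 0.160 in GB (log2FC -0.68, limma adjusted p = 0.000693, not called). None of the tested neighbours of PML and ATRX was called. The nearest to PML on either side in GB vs. CON were ISLR2 (log2FC -0.11, limma adjusted p = 0.632) and STOML1 (0.42, adjusted p = 0.00327). LOXL1, the next gene beyond STOML1, had a log2FC of -0.49 (limma adjusted p = 0.000183). Of all tested genes, 33.5% had an adjusted p under 0.05 in that comparison.

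**Figure D5:**
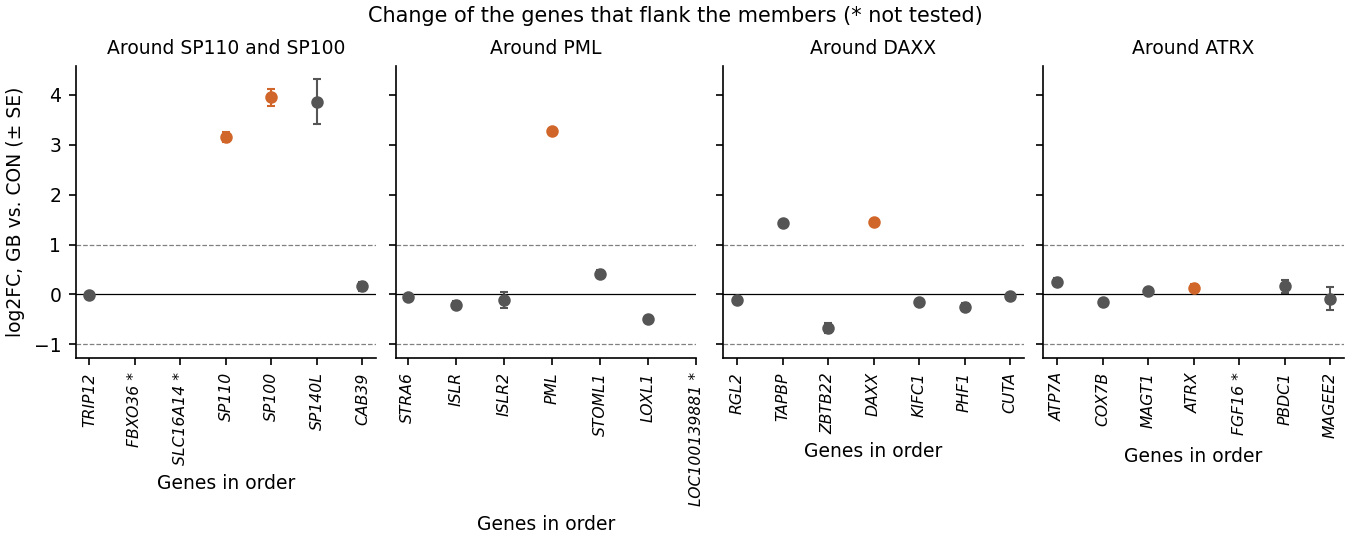
log2FC ± SE in GB vs. CON of SP110, SP100, PML, DAXX and ATRX (orange) and of the protein-coding genes beside them (grey), in annotation order, with dashed lines at a log2FC of 1 in either direction and untested genes marked by an asterisk. SP140L and TAPBP are the only flanking genes past the dashed lines.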

How the data were processed

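RNA from the 9 libraries had been sequenced by the authors as directional mRNA libraries with paired ends. Per the submitters' processing notes, reads were trimmed with fastp 0.21.0, cleared of rRNA with Bowtie2 2.33, aligned with HISAT2 2.2.1 to ARS-UCD1.2 and counted with RSEM 1.3.3. For the annotation release and the use of strand, the setting is not given in the sources used here. FPKM values computed by the authors were deposited, 1 column per library, with 2 decimals. They carry no read counts, so the authors' own test, DESeq2 1.34.0 on counts, was not run, and the number of reads behind a value is not known here.

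Groups were taken from the sample labels, and 0 columns were left unmapped. log2(FPKM + 0.5) was fitted for genes with a mean of at least 0.5 FPKM (12578 tested, 4584 left out) in limma 3.58.1 under R 4.3.3, with a mean for each group over all 9 libraries and a trend of the variance on expression. Adjusted p-values are Benjamini-Hochberg over all tested genes. Ratios and shares were compared with the exact permutation test. The procedure was checked on simulated data. Figures were drawn with matplotlib 3.10.9 in Python 3.11.15.

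The 6 genes, the lists and the alternatives were chosen with earlier results of these data known. Named are the 6 genes, every list gene called in any comparison, from lists with fewer than 2 called genes also the 3 with the highest mean FPKM, and for each of the 6 the 3 genes with the nearest profile. Some genes that this rule names are not reported here. Flanking genes and the marker gene CD163 were named after their values were seen. As alternatives, the pseudocount was set to 1 or 0.1, the filter was dropped or raised to 1 FPKM, and further fits used TPM, median-of-ratios or quantile scaling, no variance trend, a fit of the compared groups alone, the replicate number as a block, the GC content of the reads (from the sequencing statistics of the study) as a covariate with and without that block, or all but 1 of the libraries. A search of promoters for interferon response motifs had been planned, but no promoter or protein sequences were used here.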

Additional observations from a re-analysis of the deposited data

How the results depend on the processing

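The rises of SP100, SP110, SP140, PML and DAXX kept their direction and their call under all 21 alternatives in both GB comparisons. In GB vs. CON the log2FC ranged over 3.59 to 4.25 for SP100, 2.83 to 3.29 for SP110, 3.70 to 4.06 for SP140, 3.18 to 3.40 for PML and 1.34 to 1.48 for DAXX, with a highest adjusted p of 0.00147 in limma. In GB vs. GA the ranges were 3.49 to 4.01, 3.24 to 3.56, 3.92 to 4.10, 3.33 to 3.44 and 1.41 to 1.501. The count of the 6 genes called was 5, 5 and 0 in GB vs. CON, GB vs. GA and GA vs. CON under every alternative.

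The signs that turned belong to estimates that were not called in any setting. With the GC content of the reads as a covariate, ATRX stood at -0.0984 in GB vs. CON, and in GA vs. CON SP100 stood at -0.133, PML at 0.0271, DAXX at -0.0834 and ATRX at -0.0270. With that covariate and the replicate block together, ATRX stood at -0.173 in GB vs. CON, and in GA vs. CON PML stood at 0.0146, DAXX at -0.0457 and ATRX at -0.0971. ATRX in GB vs. GA was 0.0136 with median-of-ratios scaling. DAXX in GA vs. CON was -0.0148 with TPM scaling, -0.0417 with median-of-ratios scaling and -0.0456 with quantile normalization. With each library left out in turn, SP140 in GA vs. CON ranged from -0.112 to 0.0789 and DAXX from -0.0168 to 0.0505. The cause of the turned signs was not tested. Every CON library had a higher GC content than any GA or GB library, so in comparisons with CON that covariate cannot be well separated from the group.

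Libraries of the same number did not deviate together, with correlations of their deviations from the group means between -0.0306 and 0.0772, so the replicate numbers were not taken to pair the samples. Not every library correlated best with its own number. With the replicate block, 503, 458 and 5 genes were called in GB vs. CON, GB vs. GA and GA vs. CON, beside 504, 458 and 9 without it, and 5, 5 and 0 of the 6 genes. With the GC covariate and the replicate block together, 328 genes were called in GB vs. CON. In GA vs. CON the number of genes called ranged from 0 to 13 over the alternatives. There 57 genes had a limma adjusted p under 0.05. The number was 0 with the GC covariate and ranged from 7 to 78 with each library left out in turn. Of the 48 list genes, 4 were called in GB vs. CON, but 6 with the GC covariate and 3 with that covariate and the replicate block together. TP53INP1 was among those gained with the GC covariate, at -1.08, and was called in GB vs. CON under no other alternative.

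Precision is limited by 3 libraries per group, by the 2 decimals of the deposited values, which weigh most on SP100 in CON, and by the use of FPKM in place of counts.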
